A study of Mus musculus with 6 samples.

Results

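The 10 genes described here were taken as markers of resting cardiac fibroblasts (CFs) and of the progenitor-like fibroblasts of the vessel adventitia. They were taken as lying outside the structural genes of the extracellular matrix (ECM). They are Gsn, Vim, Cd34, Ly6a, Thy1, Abca8a, Pi16, Htra3, Smoc2 and Dpt, chosen by their symbols among the 49548 genes of the count table. All 10 were found, with 1 row each, and all 10 were among the 15789 tested genes, those reaching 10 counts in 2 or more libraries. The libraries hold mRNA of native CFs from hearts of 5-week-old C57BL/6J mice, 3 wildtype (WT) and 3 CharmeKO. The CharmeKO animals carry a poly(A) signal inserted in the locus of Charme, a long non-coding RNA of heart and skeletal muscle,. Native CFs were obtained by enzymatic dissociation of the heart, lysis of red blood cells and depletion of hematopoietic lineages, while the labels also list a medium for culture on fibronectin. The methods name hearts of 3 animals per genotype and independent biological replicates, while the labels do not tie a library to an animal.

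Fibroblasts are recognized by sets of genes, since no single gene is restricted to them. In the heart, the resting fibroblast spreads between the myocytes and makes collagen at a low rate, and around vessels a Pi16- and Dpt-rich adventitial type is thought to act as a reserve for other fibroblasts. Upon activation, fibroblasts turn on contractile and matrix genes and lose part of this resting profile. The set examined here covers the cytoskeleton (Vim, an intermediate filament protein, and Gsn, which severs and caps actin filaments), the cell surface (Cd34, Ly6a or Sca1, Thy1 or CD90, and the lipid transporter Abca8a) and secreted proteins (Pi16, Htra3, Smoc2 and Dpt).

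Counts of Charme itself were 26, 15 and 4 for the WT replicates in order of their number. For the CharmeKO replicates they were 7, 0 and 0. These counts are small and not scaled to library size. Set against the total counts of its library, each WT count was higher than each CharmeKO count. The closest were 4 of 9595701 in WT replicate 3 and 7 of 26884439 in CharmeKO replicate 1. A count of 0 leaves room for an expected count of up to 3. The total counts per library ranged from 9595701 in WT replicate 3 to 42101393 in WT replicate 1, and the 10 genes had between 1464 and 794918 counts in a library, so that counting alone gives an error of at most 2.61% and the spread between libraries sets the precision. The libraries were not pure fibroblast mRNA. With counts scaled to library size (CPM) and divided by transcript length, Pecam1 and Cdh5, which define endothelial cells, stood at 347 ± 44.7 and 509 ± 51.9 CPM per kilobase (SD, n = 6), above the fibroblast genes Pdgfra at 61.6 ± 5.72 and Tcf21 at 76.2 ± 6.98, whereas Ptprc, which marks leukocytes, stood at 1.92 ± 0.656. This order depended on the markers taken. The endothelial genes Kdr and Erg stood at 166 ± 29.1 and 44.3 ± 2.90 CPM per kilobase. The study tested native CFs by flow cytometry for the absence of CD45 and CD309, the proteins of Ptprc and Kdr. Protein on single cells and mRNA of the pooled cells are different measures. The fibroblast matrix genes Dcn and Col1a2 stood at 2017 ± 243 and 609 ± 160. The share of mRNA from each cell type was not tested. Cd34, Ly6a and Vim are known to be expressed by endothelial cells too, and how much of their counts came from these cells was not tested. In such bulk samples, fewer cells of a type and less RNA per cell cannot be told apart. The libraries also differed in Xist and Y-linked transcripts. WT replicate 1 and CharmeKO replicates 1 and 2 had Xist at 376 to 473 CPM and Ddx3y at 0 to 2.06 CPM, and WT replicates 2 and 3 and CharmeKO replicate 3 had Xist at 0 to 2.55 CPM and Ddx3y at 48.7 to 57.1 CPM.

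The identity genes spanned a wide range of expression. Gsn was the most abundant mRNA of all tested genes by CPM and ranked 4 of the tested genes by CPM per kilobase, at 8065 ± 1228 CPM per kilobase (SD, n = 6), and took 2.10% of all counts on average. Vim followed at 1091 ± 137 CPM per kilobase, Cd34 at 613 ± 42.6 and Ly6a at 449 ± 46.2. Next came the secreted proteins, Htra3 at 439 ± 81.0, Dpt at 377 ± 38.6, Pi16 at 281 ± 45.6 and Smoc2 at 251 ± 33.2 CPM per kilobase. Abca8a, at 126 ± 21.2, and Thy1, at 58.4 ± 28.5, had the lowest levels, and Thy1 ranked 1052 by this measure. The ranges over the 6 libraries did not overlap between Gsn and Vim, Vim and Cd34, Cd34 and Ly6a, Smoc2 and Abca8a, or Abca8a and Thy1, whereas those of the neighbours from Ly6a to Smoc2 overlapped, so their order is not resolved.

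**Figure D1:**
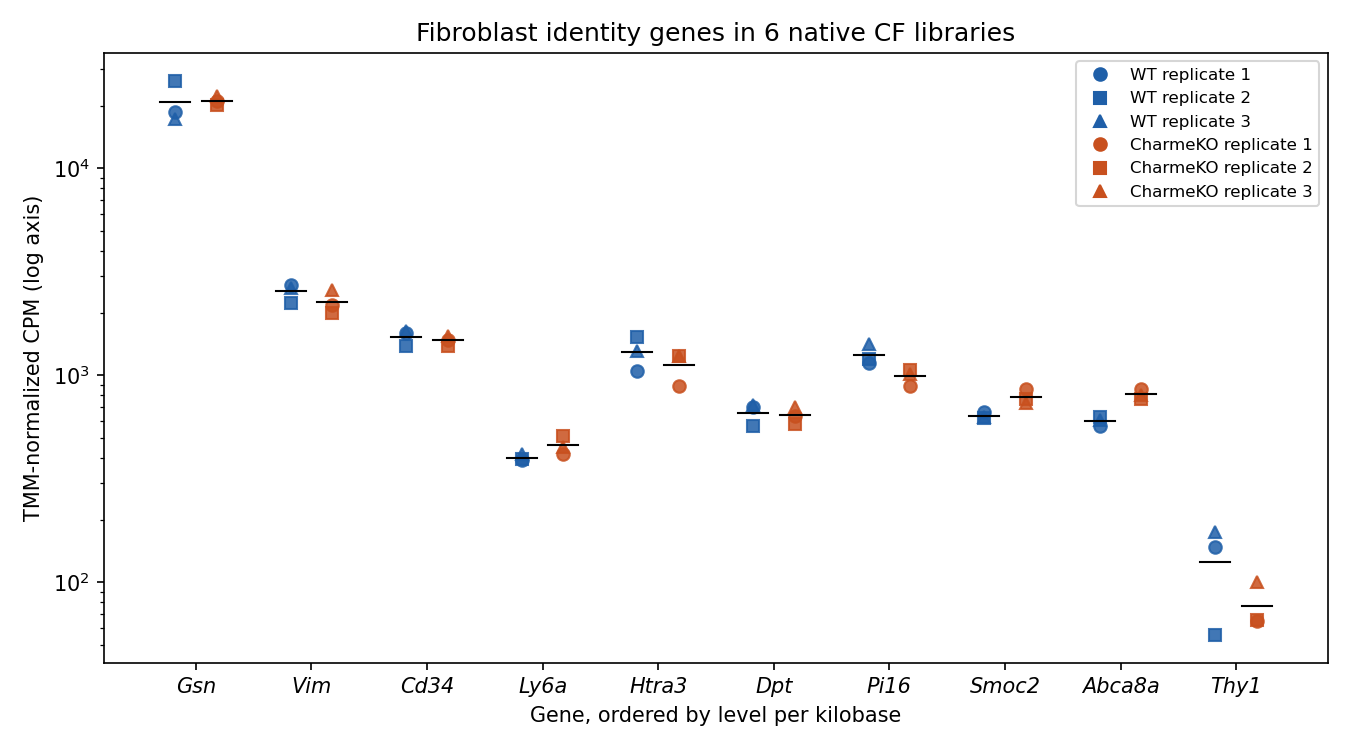
Normalized CPM (log axis) of the 10 genes in each library, with WT replicates in blue, CharmeKO replicates in orange and black lines at the group means. Gsn averages 20829 CPM in WT and 21223 CPM in CharmeKO, and Thy1 is the gene whose 3 WT values are farthest apart, from 55.7 to 174 CPM.

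None of the 10 genes passed an adjusted p of 0.05 between CharmeKO and WT in edgeR's quasi-likelihood test, in which 0.83% of all tested genes did, 0.412% lower and 0.418% higher in CharmeKO. With the replicate number as a block 0 of the 10 passed as well, beside 1.91% of all genes. At an unadjusted p under 0.05 there were 3 of the 10, Abca8a, Smoc2 and Pi16, where 12.8% of all tested genes were. The fold changes pointed both ways, with 4 genes above 0 and 6 below, and their median was −0.05 on the log2 scale, beside 0.01 for all tested genes. In 4 genes the 3 CharmeKO values did not overlap with the 3 WT values, which held for 18.2% of all tested genes. They were higher for Abca8a, Smoc2 and Ly6a (9.57% of all tested genes) and lower for Pi16 (8.59%). DESeq2 on the same genes called 1 of the 10, Abca8a, with 2.55% of its genes called.

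**Figure D2:**
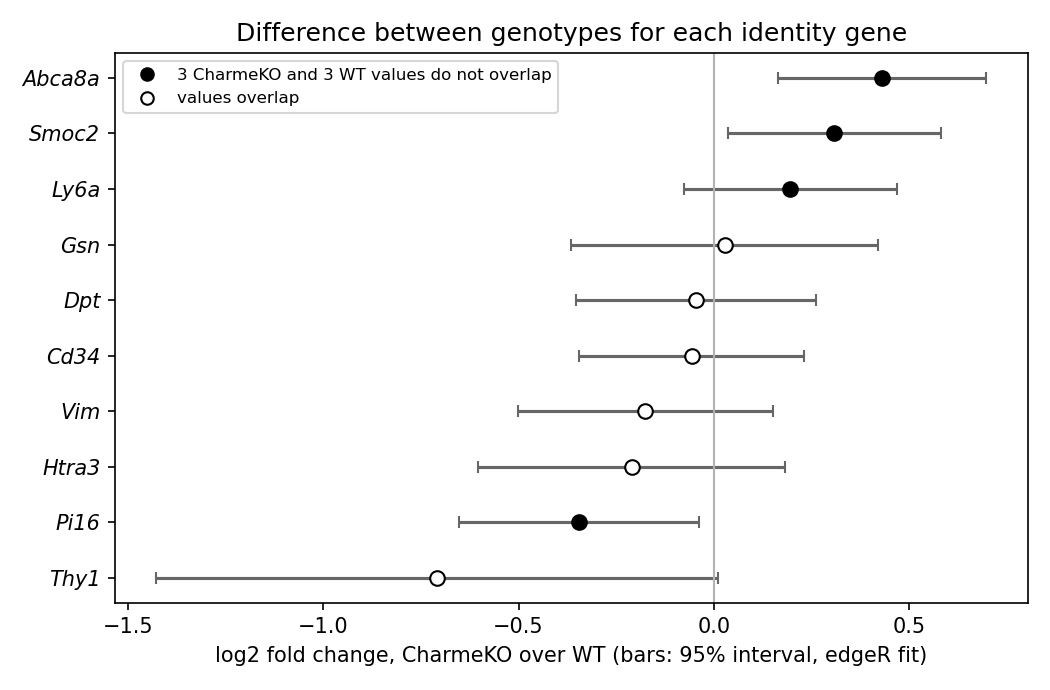
Log2 fold change of each gene between CharmeKO and WT with its 95% interval from the edgeR fit, filled where the 3 values of one group do not overlap with those of the other. The intervals of Abca8a and Smoc2 lie above 0 and that of Pi16 below it before adjustment for the number of genes tested, while that of Thy1 reaches from −1.43 to 0.01.

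Abca8a, a transporter of the ABC family linked to the export of cholesterol and other lipids, had the lowest p of the set. Its level was 570, 627 and 609 CPM in WT replicates 1, 2 and 3 and 859, 771 and 803 CPM in CharmeKO replicates 1, 2 and 3. Every CharmeKO library was thus above every WT library, and the spread within each group was small, as WT averaged 602 ± 29.4 CPM (SD, n = 3) and CharmeKO 811 ± 44.3 CPM (SD, n = 3). The log2 fold change was 0.43 (SE 0.12, edgeR adjusted p = 0.175) and the unadjusted p was 0.00447. Leaving out single libraries kept it between 0.39 and 0.47, and DESeq2 gave 0.42 with an adjusted p of 0.0107. Within the 3 libraries rich in Xist, with WT replicate 1 as the only WT library, the log2 ratio was 0.52. Within the 3 with Y-linked transcripts, with CharmeKO replicate 3 as the only CharmeKO library, it was 0.38.

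Abca8a lies in a row of related transporter genes that arose by duplication, in the order Abca8b, Abca8a, Abca9, Abca6 and Abca5. The transcripts of Abca8a and Abca8b align at 73.6% identity over 86.7% of the length of Abca8a, and none of the 10 genes had a copy of at least 97% identity over at least 50% of its transcript. Abca8b, a member of the list of other resting fibroblast genes, averaged 136 ± 17.9 CPM (SD, n = 3) among WT and 179 ± 19.8 CPM (SD, n = 3) among CharmeKO libraries, a log2 fold change of 0.40 (SE 0.13, edgeR adjusted p = 0.26). Its values did not overlap between groups, and neither did those of Abca9, with a log2 fold change of 0.20 (edgeR adjusted p = 0.501). Of the neighbours, Abca9, Abca6 and Abca5 were singled out after their values had been seen, as was Abca8b. Abca6, with a log2 fold change of −0.01 (edgeR adjusted p = 0.99), and Abca5, with 0.25 (edgeR adjusted p = 0.619), overlapped between groups.

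The 250 bases before the start of transcription are shown for both Abca8 genes, as neighbours of 1 family, and for Pi16, whose CharmeKO values all lay below its WT values. They come from RefSeq on GRCm38.p6, another build than that of the counts, and 7 of the 10 genes have an entry, all but Smoc2, Ly6a and Thy1. Capitals mark a match on either strand to 1 of 4 motifs. The TATA box, spelled TATAAA, occurs in the same window of 12.4% of the 32851 promoters in that table, the CCAAT box, spelled as its name, in 33.8%, the GC box, spelled GGGCGG, in 32.7% and the AP-1 motif, spelled TGANTCA, in 6.75%. A match is a description and not a site. Abca8a spans chr11:110095938-110096187 and Abca8b chr11:109995846-109996095, both on the minus strand, and Pi16 spans chr17:29318632-29318881 on the plus strand.
Abca8a: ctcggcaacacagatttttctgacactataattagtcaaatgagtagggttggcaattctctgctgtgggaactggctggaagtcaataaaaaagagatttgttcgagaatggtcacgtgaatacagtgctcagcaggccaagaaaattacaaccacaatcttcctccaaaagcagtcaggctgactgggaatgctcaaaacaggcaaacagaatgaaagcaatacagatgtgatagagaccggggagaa
Abca8b: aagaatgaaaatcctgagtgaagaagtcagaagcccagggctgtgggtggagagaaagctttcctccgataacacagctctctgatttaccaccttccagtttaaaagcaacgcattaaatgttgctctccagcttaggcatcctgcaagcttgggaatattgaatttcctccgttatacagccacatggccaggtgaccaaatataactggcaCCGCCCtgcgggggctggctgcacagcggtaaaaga
Pi16: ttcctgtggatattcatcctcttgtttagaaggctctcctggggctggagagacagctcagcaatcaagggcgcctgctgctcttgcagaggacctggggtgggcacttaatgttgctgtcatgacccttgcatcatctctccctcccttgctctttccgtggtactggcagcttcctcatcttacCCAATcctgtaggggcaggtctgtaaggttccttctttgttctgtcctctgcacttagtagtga
None of the 4 motifs matched in the window of Abca8a, Abca8b held 1 GC box, and Pi16 held 1 CCAAT box. The window of Vim, at chr2:13574061-13574310, held 1 TATA box and 2 CCAAT boxes. Gsn has 3 starts in the table, with 2, 1 and 1 GC boxes and 0, 1 and 3 CCAAT boxes in genomic order, and the counts do not tell transcripts from these starts apart.

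Smoc2, a secreted calcium-binding protein of the SPARC family, also had a positive fold change that did not pass the threshold. It was at 662, 622 and 625 CPM in WT replicates 1, 2 and 3 and at 862, 767 and 734 CPM in CharmeKO replicates 1, 2 and 3, so that all CharmeKO values were above all WT values. The means were 636 ± 22.5 CPM (SD, n = 3) and 788 ± 66.1 CPM (SD, n = 3), and the log2 fold change was 0.31 (SE 0.12, edgeR adjusted p = 0.327). Leaving out single libraries moved it between 0.24 and 0.35, with adjusted p-values of at least 0.242 in edgeR.

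Pi16, a secreted protein that marks the adventitial fibroblast, had a negative fold change that did not pass the threshold. It was at 1152, 1198 and 1420 CPM in WT replicates 1, 2 and 3 and at 884, 1065 and 1018 CPM in CharmeKO replicates 1, 2 and 3. Every CharmeKO value was below every WT value, as WT averaged 1256 ± 143 CPM (SD, n = 3) and CharmeKO 989 ± 93.6 CPM (SD, n = 3), a log2 fold change of −0.35 (SE 0.14, edgeR adjusted p = 0.328). It stayed below 0 when single libraries were left out, between −0.40 and −0.25. Across the 6 libraries, log2(CPM + 1) of Pi16 and Smoc2 correlated at r = −0.91 and that of Abca8a and Smoc2 at r = 0.90, which is a description of 6 points from 2 groups.

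Htra3, a secreted serine protease, and Dpt, or dermatopontin, a small protein that binds collagen-associated proteoglycans, overlapped between groups. Htra3 was at 1043, 1530 and 1316 CPM in WT and at 886, 1241 and 1234 CPM in CharmeKO, with a log2 fold change of −0.21 (SE 0.18, edgeR adjusted p = 0.681). The lowest WT value was below 2 of the CharmeKO values. The log2 fold change of Htra3 was −0.34 without WT replicate 1, −0.076 without WT replicate 2, −0.064 without CharmeKO replicate 1 and −0.089 with a term for the split by Xist and Y-linked transcripts. Dpt was at 700, 566 and 716 CPM in WT and at 633, 581 and 705 CPM in CharmeKO, with a log2 fold change of −0.05 (SE 0.14, edgeR adjusted p = 0.921), and its 95% interval reached from −0.35 to 0.26. It lay between −0.15 and 0.021 when single libraries were left out.

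Among the surface proteins, Thy1 had the largest fold change of the 10 genes and the widest spread. Thy1, or CD90, is a small glycoprotein held in the membrane by a lipid anchor. It is one of the markers stained in the study's flow cytometry. For native CFs the study took CD90 and Sca1 as mesenchymal or fibroblast markers. In cultured CFs, cells with both were read as activated. Thy1 was at 148, 55.7 and 174 CPM in WT replicates 1, 2 and 3 and at 64.7, 65.5 and 100 CPM in CharmeKO replicates 1, 2 and 3. WT replicates 1 and 3 were above all CharmeKO libraries, whereas WT replicate 2 was the lowest of all 6, so the groups overlapped. The coefficient of variation was 49.5% in WT and 26.4% in CharmeKO, and the log2 fold change was −0.71 (SE 0.33, edgeR adjusted p = 0.402). Without WT replicate 2 it was −1.07 with an adjusted p of 0.00878, in a fit that called 2.25% of its genes, and without WT replicate 3 it was −0.41 (edgeR adjusted p = 0.773). Without a gene filter the adjusted p was 2.55e-05, at 2.84% of genes called. Within the libraries rich in Xist, with WT replicate 1 as the only WT library, the log2 ratio was −1.18, and within those with Y-linked transcripts, with CharmeKO replicate 3 as the only CharmeKO library, it was −0.20.

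The study's primers for Thy1, used in its qPCR, are shown because they tell which part of the transcript that assay reads. The counts here cover all exons. That qPCR was run on cultured CFs, where the study reported lower Thy1 in CharmeKO, and not on the native CFs counted here. In flow cytometry of cultured CFs the study also reported a smaller share of cells with both Sca1 and CD90 in CharmeKO.
Thy1 forward: tccaagtcggaactcttggc
Thy1 reverse: tccaggcgaaggttttggtt
On the Thy1-201 transcript of GENCODE release 21, 1735 bases long, the forward primer starts at base 96, ahead of the coding sequence that runs from base 119 to base 604, the reverse primer ends the product within the coding sequence, and the product has 133 bases. Both primers also match 3 other coding transcripts of Thy1, with products of 125 to 189 bases. T cells carry Thy1 as well. Of 8 T cell genes 4 had enough counts to be tested, and their sum was between 5.03 and 9.99 CPM in all libraries, with Cd3d, Cd3e, Cd3g and Cd8a below the filter. The part of T cells in the values of Thy1 was not tested.

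Ly6a, the Sca1 antigen, another lipid-anchored surface protein, was at 389, 395 and 417 CPM in WT replicates 1, 2 and 3 and at 417, 508 and 448 CPM in CharmeKO. The highest WT value, 416.5 CPM, was just below the lowest CharmeKO value, 416.9 CPM, so the separation rests on a margin far smaller than the spread. The log2 fold change was 0.19 (SE 0.12, edgeR adjusted p = 0.558) and 0.12 without CharmeKO replicate 2. Ly6a has a relative, Ly6g, whose transcript aligns at 81.6% identity over 95.6% of the length of Ly6a. Cd34, a sialomucin of fibroblasts, endothelium and progenitor cells, was at 1592, 1382 and 1628 CPM in WT and at 1487, 1386 and 1552 CPM in CharmeKO, with a log2 fold change of −0.06 (SE 0.13, edgeR adjusted p = 0.897). Its values interleaved, and its 95% interval, from −0.34 to 0.23, left room for a change of that size in either direction. The summed level of 18 endothelial genes, all of them tested, was 13538, 18346 and 12956 CPM in WT replicates 1, 2 and 3 and 14539, 19867 and 17091 CPM in CharmeKO, and 0 of the 18 passed the threshold. In edgeR, 5 of the 18 had an unadjusted p under 0.05, beside 12.8% of all tested genes. Values did not overlap between groups in 6, beside 18.2%, and 11 log2 fold changes were above 0 and 7 below. The part of endothelial cells in the values of Ly6a, Cd34 and Vim was not tested.

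The cytoskeletal genes did not separate the groups either. Gsn was at 18690, 26456 and 17340 CPM in WT replicates 1, 2 and 3 and at 21182, 20095 and 22393 CPM in CharmeKO. WT replicate 2 was the highest of all 6 libraries and the other WT libraries the lowest, and the log2 fold change was 0.03 (SE 0.18, edgeR adjusted p = 0.969). It turned to −0.04 without WT replicate 1, to −0.09 without WT replicate 3 and to −0.01 without CharmeKO replicate 3, and was 0.23 without WT replicate 2. The sum of 16 genes of the dissociation response, such as Fos and Egr1, was also highest in WT replicate 2, at 55321 CPM against 37513 to 48228 CPM in the others, and its part in Gsn was not tested. In this list Hspa1a and Hspa1b passed the threshold, both higher in CharmeKO, with log2 fold changes of 1.30 and 1.59. Vim was at 2736, 2226 and 2652 CPM in WT and at 2175, 1996 and 2569 CPM in CharmeKO, with a log2 fold change of −0.18 (SE 0.15, edgeR adjusted p = 0.681) that was −0.096 without CharmeKO replicate 2 and −0.28 without CharmeKO replicate 3.

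**Figure D3:**
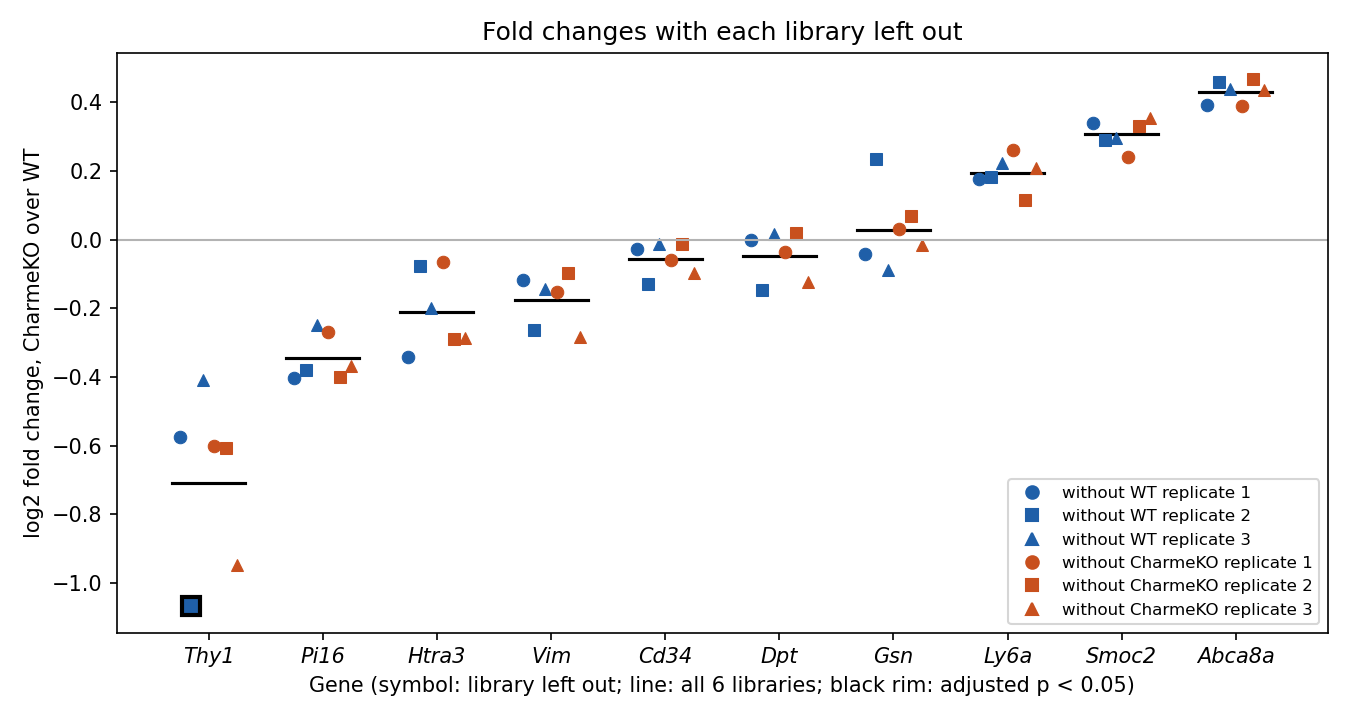
Log2 fold change of each gene with each library left out in turn (symbols) and with all 6 libraries (lines); a black rim marks an adjusted p under 0.05. The values of Abca8a, Smoc2 and Ly6a stay above 0 and those of Pi16 and Thy1 below it, while those of Gsn and Dpt cross 0, and Thy1 without WT replicate 2 is the 1 fit past the threshold.

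The library with the extreme value differed between genes. WT replicate 2 was the lowest library for 4 of the 10 genes and the highest for 2, WT replicate 3 was the highest for 4, and CharmeKO replicate 3 was neither for any gene. Of the 45 pairs among the 10 genes, 18 correlated above 0 across the 6 libraries, with a median r of −0.21. The 7 pairs with r above 0.85 were Abca8a with Smoc2 and 6 pairs among Thy1, Cd34, Dpt and Vim, of which all but Vim were lowest in WT replicate 2, with Cd34 and Dpt at r = 0.98. Gsn and Thy1 were at r = −0.78. These values describe 6 points and carry no test.

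For each gene, the pair of tested genes with a mean of at least 10 CPM most like it over the 6 libraries was taken among 8904 candidates. For Thy1 these were Pak4 (r = 0.996) and Plpp5 (r = 0.995), for Dpt Ccnd1 (r = 0.998) and Yipf5 (r = 0.987), and for Cd34 Ipo5 (r = 0.993) and Chn1 (r = 0.992). Abca8a was closest to Oxr1 (r = 0.991) and Colec12 (r = 0.984), Smoc2 to Zkscan8 (r = 0.999) and Ptprd (r = 0.995), and Pi16 to Sh3pxd2b (r = 0.995) and Lman2l (r = 0.992). Between 14 genes, for Ly6a, and 53 genes, for Htra3, exceeded r = 0.95, among 8904 genes and over only 6 points.

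The wider resting profile was read from 30 further genes of resting and adventitial fibroblasts that are not structural matrix genes. All 30 were tested, 11 had log2 fold changes above 0 and 19 below, and the median was −0.09. In edgeR, 8 of the 30 had an unadjusted p under 0.05, beside 12.8% of all tested genes. The summed level of the 30 was 6432 to 6744 CPM in WT and 5884 to 6382 CPM in CharmeKO. All CharmeKO sums were thus below all WT sums, and this difference was not tested. The sums include Gfpt2, at 406 CPM in WT replicate 1 and 235 CPM in CharmeKO replicate 3. These libraries had the lowest WT sum and the highest CharmeKO sum, and without Gfpt2 the sums of the groups overlap. The test called 1 of the 30 genes, Gfpt2, which makes the first step towards amino sugars such as those of hyaluronan. Gfpt2 was at 406, 424 and 442 CPM in WT replicates 1, 2 and 3 and at 178, 154 and 235 CPM in CharmeKO, with no overlap, a log2 fold change of −1.17 (SE 0.16, edgeR adjusted p = 0.00358). The highest CharmeKO value was well below the lowest WT value, and the gene passed the threshold whichever single library was left out, with adjusted p-values between 0.00224 and 0.0445 in edgeR. DESeq2 called 3 genes, Gfpt2, Cd248 (lower, −0.79) and Rarres2 (higher, 0.45), the other two chosen after their values were seen, and without WT replicate 2 edgeR called 5, Gfpt2, Cd248, Efhd1, Rarres2 and Inmt. Pdgfra, the receptor by which resident CFs are traced, had a log2 fold change of −0.05 (edgeR adjusted p = 0.914), and the CF transcription factor Tcf21 one of 0.15 (edgeR adjusted p = 0.619).

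The activated state was read from 12 contractile and activation genes outside the matrix. None of the 12 passed the threshold in edgeR, 1 had an unadjusted p under 0.05, and the median log2 fold change was −0.13, with 5 genes above 0 and 7 below. The gene with that p was Fap, a surface protease, named after its value was seen, with a log2 fold change of 0.53 (edgeR adjusted p = 0.212). Of those with the highest levels, Acta2, which encodes smooth muscle actin, had a log2 fold change of 0.25, Tagln 0.27 and Myl9 0.24, with adjusted p-values of 0.492, 0.424 and 0.482 in edgeR, and these genes are also expressed by mural cells.

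The fibroblast matrix genes were read in the same libraries. Of 18 matrix genes, 15 were below 0 and 3 above, with a median of −0.62, beside −0.05 for the identity genes. The edgeR test called 2 of them, Eln and Mfap4, both lower, and 14 had an unadjusted p under 0.05. The study, with DESeq2, reported several ECM genes as significantly lower in native CharmeKO CFs. The 10 identity genes lay between −0.71 and 0.43, and 9 of them had a higher log2 fold change than that median of the matrix genes, Thy1 being the exception. The summed level of the 18 matrix genes ranged from 30867 to 44914 CPM in WT and from 21996 to 32564 CPM in CharmeKO, and that of the 10 identity genes, most of it Gsn, from 26897 to 35057 CPM and from 28474 to 31557 CPM. The difference between the lists was not tested.

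**Figure D4:**
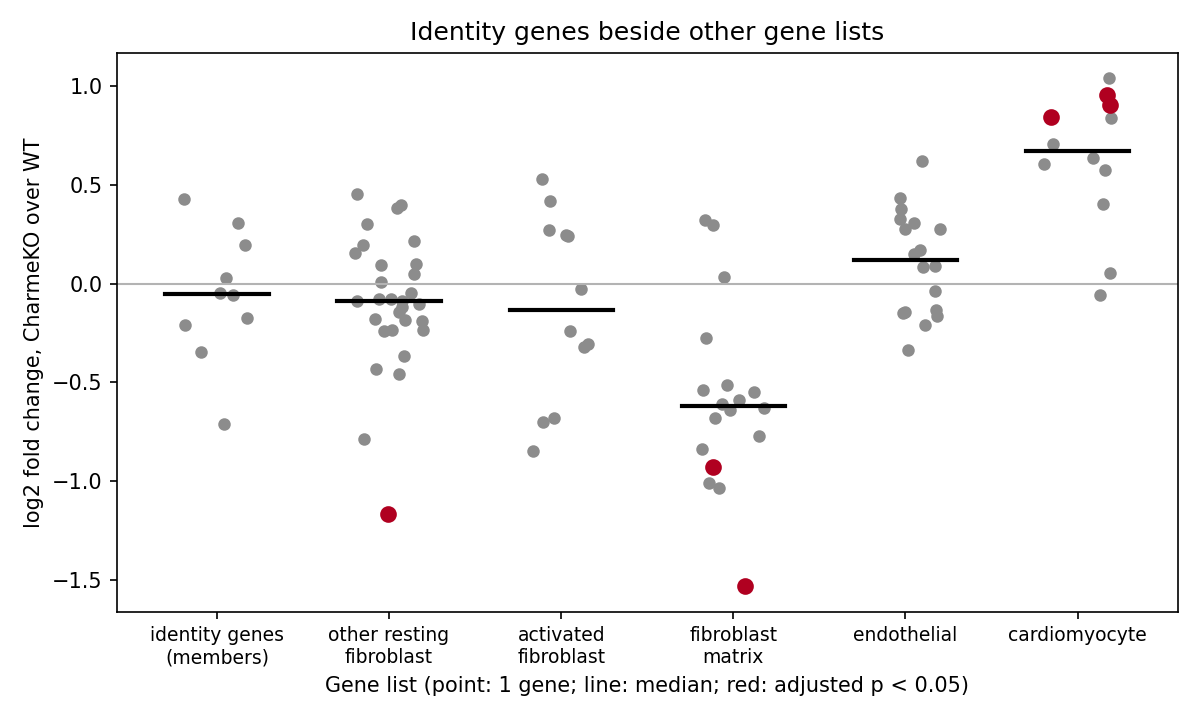
Log2 fold change of each gene (points) in the identity genes and 5 other lists, with the median as a line and genes of adjusted p under 0.05 in red. The medians are −0.05 for the identity genes, −0.62 for matrix genes and 0.67 for cardiomyocyte genes.

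A ratio of counts within a library does not depend on scaling between libraries, so Col1a1, the main collagen I gene, was set against each identity gene. Col1a1 itself did not pass the threshold, with a log2 fold change of −0.77 (SE 0.23, edgeR adjusted p = 0.189). Its groups overlapped, at 3132 CPM in WT replicate 2 and 3226 CPM in CharmeKO replicate 3. The study, which used DESeq2, reported collagen genes as significantly lower in native CharmeKO CFs. Its qPCR of native CFs included Col1a1, named there as one of the most significant genes. All the ratios share this numerator, so they are not independent of each other. The log2 ratio of Col1a1 to Cd34 was 1.46, 1.18 and 1.52 for the WT replicates in order and 0.55, 0.32 and 1.06 in CharmeKO, with all CharmeKO values below all WT values and a difference of −0.74. Against Abca8a the difference was −1.23, against Smoc2 −1.10, against Ly6a −0.99, against Dpt −0.75 and against Vim −0.62, and in these 6 genes the groups did not overlap, which held for 35.9% of all tested genes taken as the denominator. Against Gsn (−0.85), Htra3 (−0.59) and Pi16 (−0.45) the groups overlapped. Without CharmeKO replicate 2 the difference was −0.30 for Htra3 and −0.19 for Pi16, and for Htra3 it was −0.37 without WT replicate 1 and −0.89 without WT replicate 2. With Col3a1 in place of Col1a1 it was −0.28 for Pi16 and −0.042 for Thy1. Against Thy1 the difference was −0.21, from 5.15 ± 0.58 (SD, n = 3) in WT to 4.94 ± 0.18 (SD, n = 3) in CharmeKO, and it turned to 0.12 without WT replicate 2.

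**Figure D5:**
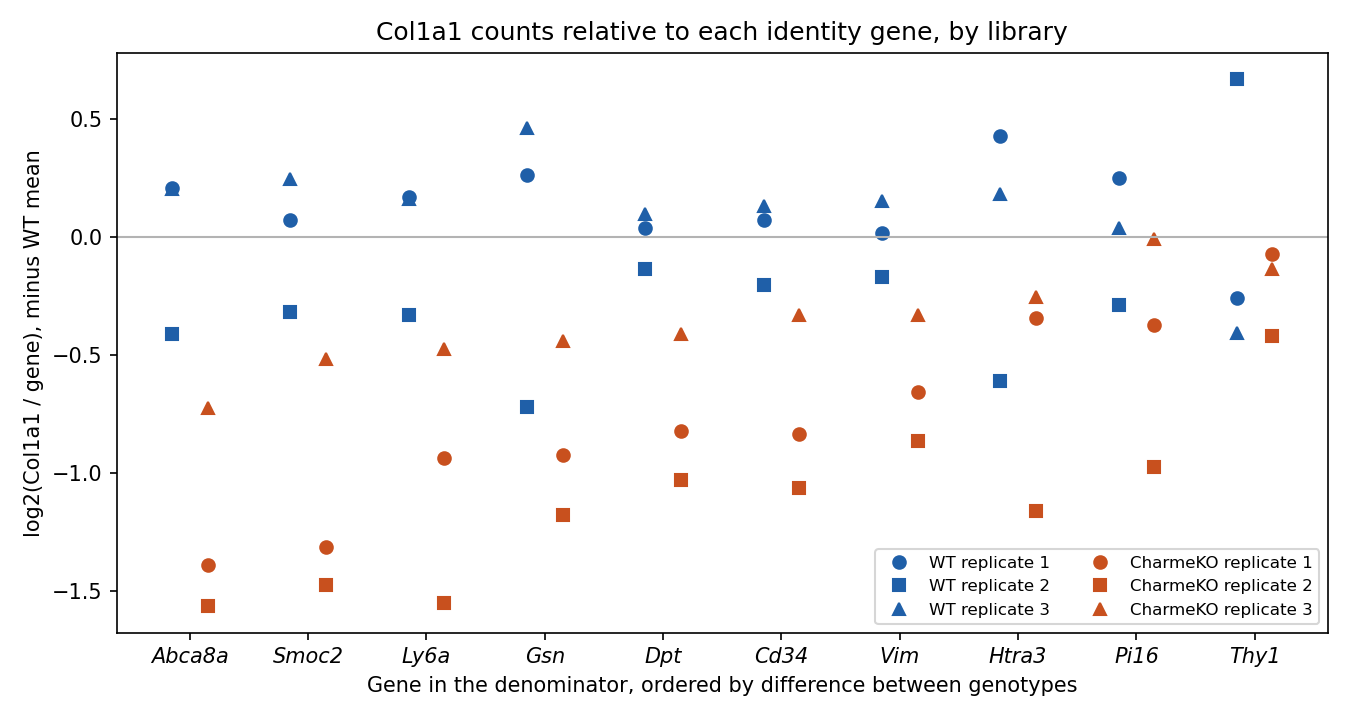
Log2 ratio of Col1a1 counts to those of each identity gene within each library, set to 0 at the WT mean of each gene. The CharmeKO libraries lie below the WT libraries for Abca8a, Smoc2, Ly6a, Dpt, Cd34 and Vim and overlap with them for Gsn, Htra3, Pi16 and Thy1.

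Markers of other cell types were read in the same way. Of 12 cardiomyocyte genes, 3 passed the threshold, Mb, Tnni3 and Myh6, all higher in CharmeKO, and the summed level was 740 to 843 CPM in WT and 923 to 1247 CPM in CharmeKO. Of 9 epicardial genes 8 were tested, all 8 were below 0 and Wt1 passed the threshold, with a sum of 58.2 to 75.7 CPM in WT and 34.4 to 41.9 CPM in CharmeKO. Wt1 made up most of this sum, at 50.8 CPM on average in WT and 32.3 CPM in CharmeKO, and without it the groups overlap. The other tested epicardial genes were low, the highest being Upk3b with a mean of 3.46 CPM. Of 7 erythroid genes 1 passed, Slc4a1, lower in CharmeKO, while 0 of 11 mural, 0 of the 11 tested leukocyte and 0 of the 5 tested Schwann cell genes did. The leukocyte genes summed to 31.8 to 60.4 CPM in WT and 42.9 to 58.9 CPM in CharmeKO, the mural genes to 2578 to 2984 and 2489 to 2860 CPM, the Schwann cell genes to 20.98 to 22.0 and 23.6 to 26.4 CPM, and the erythroid genes to 26796 to 39250 and 24423 to 31759 CPM. The part of these cell types in the values of the identity genes was not tested.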

How the data were processed

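Native CFs of 3 WT and 3 CharmeKO samples were profiled by directional, poly(A)-selected mRNA sequencing. The authors aligned Q30-filtered reads with STAR, counted them per gene on Ensembl release 87 with Charme added, and took the "reverse" configuration. The deposited values are these raw counts per gene and library, with no normalization, and 0 columns were left unused. The submitters' processing notes name the builds GRCm39 and GRCh38, of which the methods name the mouse assembly. The versions of STAR and DESeq2 are not given in the sources used here.

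Genes reaching 10 counts in 2 or more libraries were scaled by TMM factors. CharmeKO was tested against WT, by the two-sided quasi-likelihood test of edgeR 4.0.16 in R 4.3.3, with Benjamini-Hochberg adjustment over all 15789 tested genes. Standard errors were derived from its F statistics. The common dispersion was 0.0410. The procedure was tested on simulated data. CPM are TMM-normalized, and no 2 libraries of 1 group agreed within sampling noise. Transcript lengths and gene order were taken from GENCODE mouse release 21 (GRCm38), so no gene coordinates on the build of the counts are given, and copies were sought with blastn 2.17.0.

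Named genes are all 10 members, and of each list the genes past the threshold or, where none passed, up to 3 of the highest level, and for each member the 2 genes most like it. Other list genes were named after their values were seen. The members and lists were chosen with earlier results of these data known. Alternatives were DESeq2 1.42.0, other normalizations, other gene filters, hemoglobin and dissociation response genes left out, the replicate number as a block, and each library left out. A term for the split by Xist and Y-linked transcripts was added after seeing the data. Figures were drawn with matplotlib 3.10.9.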

Additional observations from a re-analysis of the deposited data

How the results depend on the processing

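The number of identity genes past the threshold stayed at 0 with other normalizations, the filters of 10 counts in 5 libraries and of filterByExpr, hemoglobin and dissociation response genes left out, the replicate number as a block, and the term for the split by Xist and Y-linked transcripts. It was 1 with DESeq2 (Abca8a) and 1 without a gene filter (Thy1), and between 0 and 1 with each library left out. The other resting fibroblast genes past it, 1 in all, numbered 3 with DESeq2, 4 without a gene filter, 2 with the replicate block and between 1 and 5 with 1 library left out. All genes past it, 131 in all, numbered 394 with DESeq2 (154 higher, 240 lower), 699 without a gene filter (253 higher, 446 lower), 90 with 10 counts in 5 libraries, 302 with the replicate block (115 higher, 187 lower) and between 61 and 349 with 1 library left out, 71 without WT replicate 1, 349 without WT replicate 2, 67 without WT replicate 3, 61 without CharmeKO replicate 1, 67 without CharmeKO replicate 2 and 189 without CharmeKO replicate 3. Same-numbered WT and CharmeKO libraries deviated from their group means with correlations of 0.216, 0.0535 and 0.161. Each library correlated best with the one of its own number in the other group. The labels do not state a pairing, so whether same-numbered libraries were handled together is not known. With the replicate block the log2 fold change of Thy1 was −0.60 and no identity gene passed the threshold.

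With 1 library left out the log2 fold change of Gsn ranged from −0.089 to 0.23, that of Dpt from −0.15 to 0.021 and the log2 ratio of Col1a1 to Thy1 from −0.41 to 0.12. The log2 fold change of Gsn reversed to −0.041 without WT replicate 1, −0.089 without WT replicate 3 and −0.014 without CharmeKO replicate 3, and that of Dpt to 0.016 without WT replicate 3 and 0.021 without CharmeKO replicate 2. The ratio of Col1a1 to Thy1 reversed to 0.12 without WT replicate 2. The cause of these was not tested. In the other 8 genes the direction held in all 15 alternatives.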
